A study of Mus musculus with 4 samples.

Results

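The zinc-finger transcription factor genes Klf4, Klf2 and Klf6 were examined in mouse monocytes by ATAC-seq, an assay in which a transposase inserts adapters into chromatin that is open enough to be reached, so that reads pile up as peaks over accessible DNA. Members were chosen with earlier results of these data known, and within the loci by position alone. The windows were 60 kb around Klf4 on chromosome 4, 50 kb around Klf2 on chromosome 8 and 60 kb around Klf6 on chromosome 13. Every peak of the deposited set (GRCm39) that overlapped a window was a member. This gave 17 of 57090 peaks. The 7 peaks at Klf4 spanned chr4:55508782-55534804, the 4 at Klf2 chr8:73049453-73081237 and the 6 at Klf6 chr13:5895175-5939428. The first Klf2 peak began before its window and overlapped it in part. The experiment compared femur-derived with mandibular-derived bone marrow monocytes of 2-mo-old mice (C57BL/6J per the study's methods), with 2 libraries per site and no treatment or altered allele named for either site. Each library came from 20000 cells of 4 pooled mice, and femur and mandible of the same batch came from the same pool (replicate 1 is batch A, replicate 2 is batch B). The labels give male mice, whereas the isolation paragraph of the study's methods gives both sexes. The labels call the cells CD11b+, while the protocol collected the flow-through of a monocyte isolation kit. Marker genes of monocytes and of other cell types were not analysed here, because gene positions on GRCm39 were not used. Total counts in peaks ranged from 27464565 to 75294068 per library. The deepest was femur replicate 2, which had the lowest normalized value of the 4 libraries at 9 of the 17 peaks, as it had at 32.6% of all peaks.

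Krüppel-like factors bind GC-rich boxes and CACCC boxes in promoters and enhancers. Klf4 is needed for the formation of inflammatory monocytes and takes part in macrophage polarization. Klf2 holds T cells and endothelium in a resting state and dampens inflammatory genes in myeloid cells. Klf6 is an early-response gene that acts with NF-κB in inflammatory macrophages. In the RefSeq gene order, Klf4 lies between Rad23b and Actl7b, Klf2 between Ap1m1 and Eps15l1, and Klf6 between Akr1e1 and Pitrm1. The peaks were not assigned to a gene here, and each locus is named for the KLF gene its window was drawn around.

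The 250 bases before each gene's start are shown so that they can be read for the kinds of box that KLF proteins bind. They come from RefSeq on GRCm38.p6, at chr4:55532476-55532725 on the minus strand for Klf4, chr8:72318812-72319061 on the plus strand for Klf2 and chr13:5861239-5861488 on the plus strand for Klf6, and were not placed on the GRCm39 peaks. Capitals mark matches on either strand to the GC box (GGGCGG), the CACCC box (CACCC), the E-box (CACGTG), the CCAAT box (CCAAT) and the TATA box (TATAAA).
Klf4: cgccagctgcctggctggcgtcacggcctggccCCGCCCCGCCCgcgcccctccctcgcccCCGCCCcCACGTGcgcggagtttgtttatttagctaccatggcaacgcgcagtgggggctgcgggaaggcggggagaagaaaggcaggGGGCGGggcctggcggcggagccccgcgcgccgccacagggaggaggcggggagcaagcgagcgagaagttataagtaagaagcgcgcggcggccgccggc
Klf2: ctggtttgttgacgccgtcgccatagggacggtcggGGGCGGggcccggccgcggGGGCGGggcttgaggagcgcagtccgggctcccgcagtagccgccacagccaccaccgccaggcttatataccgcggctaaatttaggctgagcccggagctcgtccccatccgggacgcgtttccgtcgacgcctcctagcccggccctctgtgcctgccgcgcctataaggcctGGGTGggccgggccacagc
Klf6: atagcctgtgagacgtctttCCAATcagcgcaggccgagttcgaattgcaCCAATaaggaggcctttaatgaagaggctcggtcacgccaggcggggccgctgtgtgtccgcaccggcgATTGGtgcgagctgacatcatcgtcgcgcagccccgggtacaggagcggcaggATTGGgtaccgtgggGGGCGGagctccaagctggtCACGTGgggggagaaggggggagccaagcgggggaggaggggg

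GC content was 74.0% for Klf4, 71.2% for Klf2 and 64.8% for Klf6, higher than in 95.1%, 92.2% and 82.3% of the 32851 RefSeq promoter stretches of the same length. The GC box matched 4 times in Klf4, where a neighbouring pair of matches shares a base, 2 times in Klf2 and 1 time in Klf6, and 32.7% of all stretches held at least 1. The CACCC box, held by 52.0% of all stretches, matched 1 time in Klf2 and 0 times in the others. The E-box, held by 6.0%, matched 1 time in Klf4 and 1 time in Klf6. Klf6 had 4 matches to the CCAAT box, which 33.8% of all stretches held, and Klf4 and Klf2 had 0. The TATA box matched in 0 of the 3 genes and in 12.4% of all stretches.

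Each locus was made of a single very wide peak with smaller peaks beside it. Values are loess-normalized counts scaled to library size (CPM), given per kb of peak where peaks of different length are compared. At Klf4 the widest peak was Peak_37108 (chr4:55529436-55533564), 4129 bp long and the 73rd longest of all peaks. At Klf2 it was Peak_51230 (chr8:73070999-73081237), 10239 bp long and the 10th longest. At Klf6 it was Peak_13591 (chr13:5910368-5923326), 12959 bp long and the 6th longest. The median length of all peaks was 364 bp, and only 75 were longer than 4000 bp. By mean CPM, these 3 peaks ranked 154th, 7th and 16th of 57090. The other 14 peaks were between 133 and 1652 bp long.

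**Figure D1:**
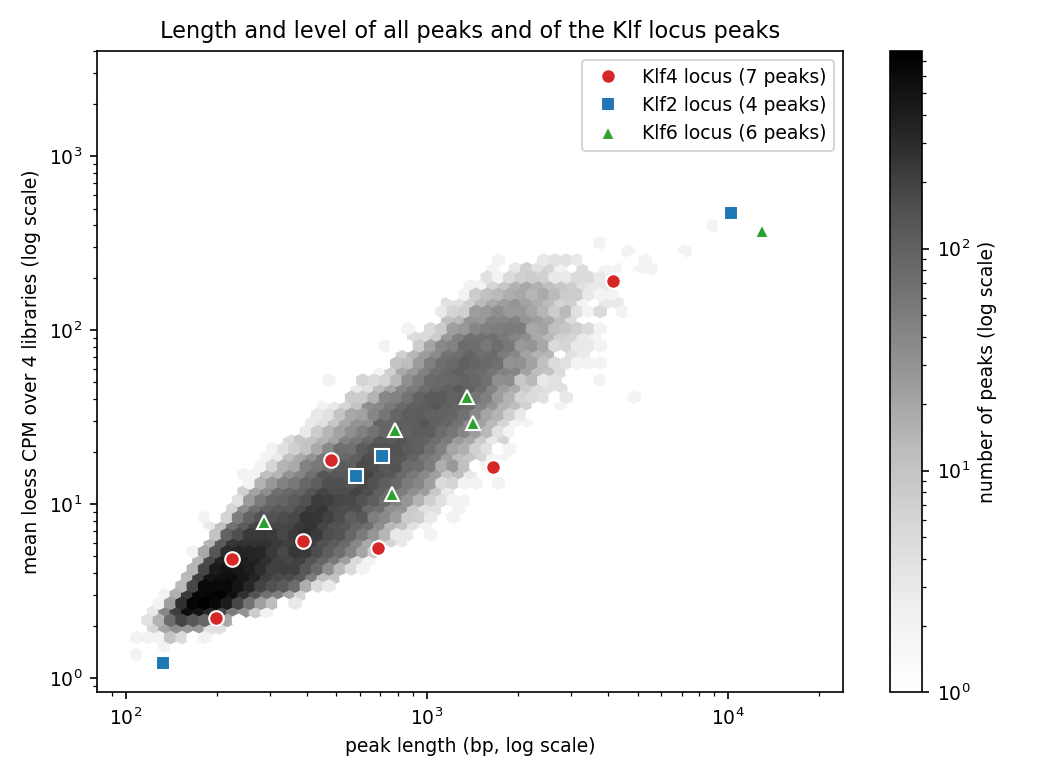
Peak length (bp, log scale) against mean loess CPM over the 4 libraries (log scale), with shading for the number of peaks per cell and symbols for the 17 peaks of the Klf loci. The widest peaks of Klf2 and Klf6, at 10239 and 12959 bp, lie at the upper right end of all peaks, and Peak_51229 of Klf2, at 133 bp, lies at the lower left end.

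Per kb, the order of the leading peaks was Klf4 (46.5 CPM per kb, mean of 4 libraries), Klf2 (45.9) and Klf6 (28.7). Over the libraries, Klf4 ranged from 38.8 to 51.2 and Klf2 from 38.7 to 51.3 CPM per kb, so these neighbours in the order overlapped almost fully. Klf6 ranged from 23.1 to 34.0 CPM per kb and lay below both in every library. The smaller peaks were sparser than the leading peak of their locus at Klf4 and Klf2, with means from 8.14 to 37.7 CPM per kb, whereas at Klf6 Peak_13590 (34.0) and the peak farthest from it in the window (30.3) exceeded the leading peak. The smallest gaps beside the wide peaks were 161 bp at Klf4 and 109 bp at Klf6, while 12793 bp separated the Klf2 wide peak from its nearest member.

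**Figure D2:**
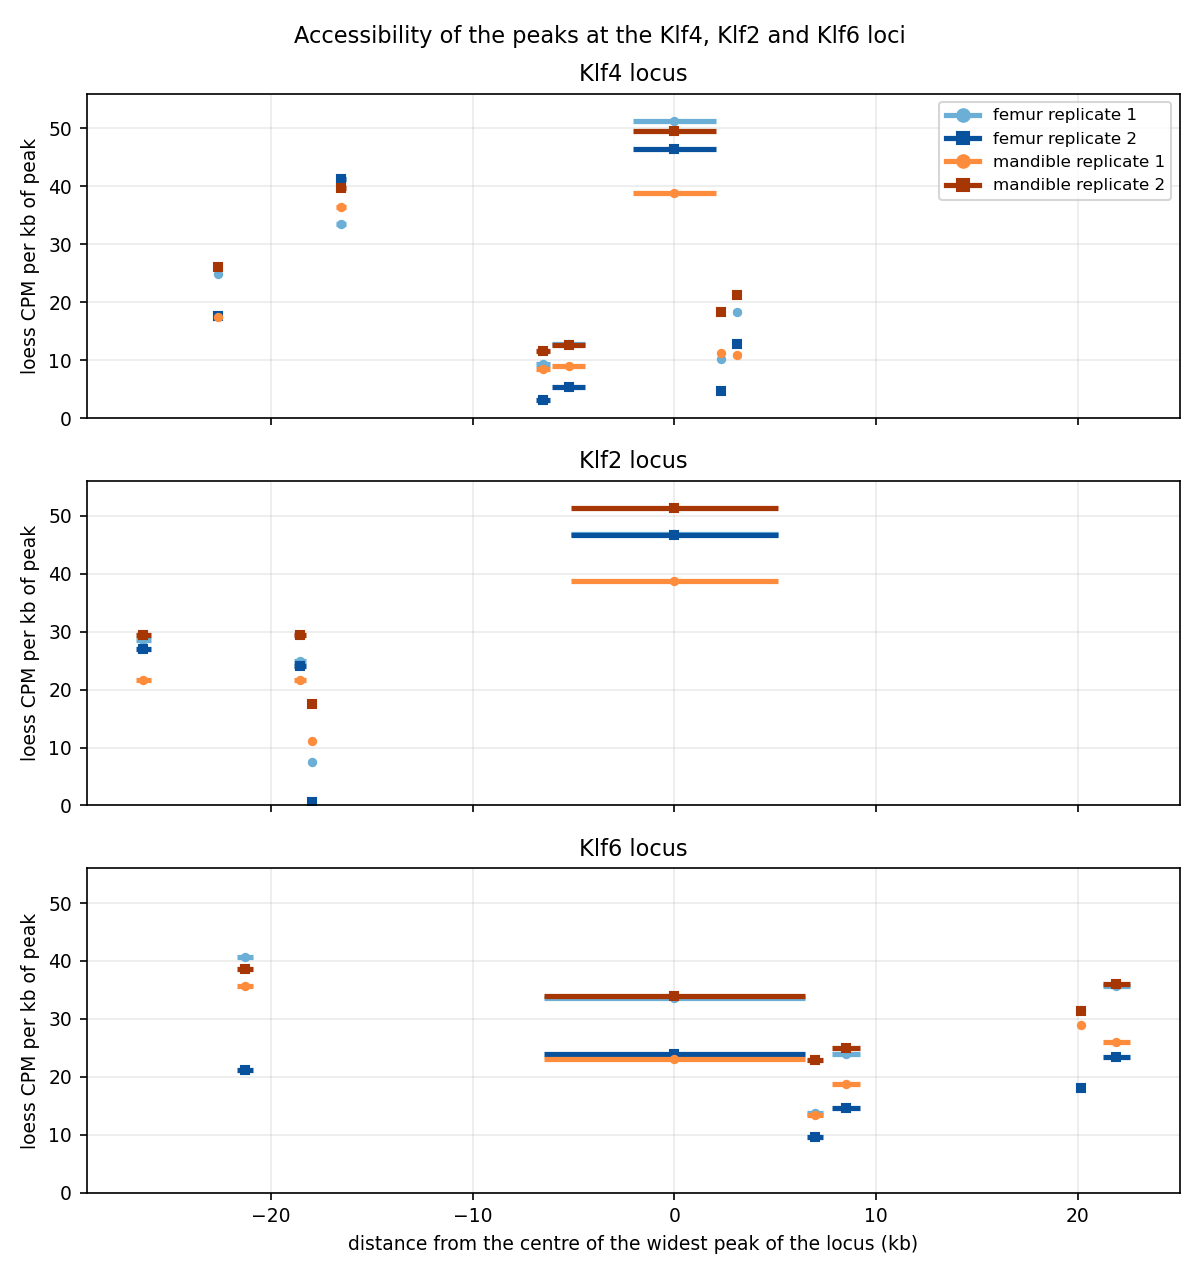
Each horizontal bar is 1 peak drawn to its length, placed by distance from the centre of the widest peak of the locus (kb), at its loess CPM per kb in 1 library (colours). At the widest Klf2 peak, femur replicate 1 (46.9) is covered by femur replicate 2 (46.6), and at the widest Klf6 peak the pairs femur replicate 1 with mandible replicate 2 and femur replicate 2 with mandible replicate 1 lie together.

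No Klf peak passed an adjusted p of 0.05 between mandible and femur by edgeR's quasi-likelihood test, against 0.00701% of all 57090 peaks (4 peaks). At an unadjusted p under 0.05, 3 of the 17 were higher in mandible and 0 were lower. Of all peaks, 1.61% were higher and 1.10% lower at this level. These 3 were Peak_37109, Peak_51229 and Peak_13592, at 199, 133 and 764 bp, and none was the leading peak of its locus. Peak_37109 and Peak_51229 were shorter than the median peak of 364 bp, and Peak_13592 was longer. A difference in bulk accessibility cannot be told apart from a difference in the share of cells of a type.

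At Klf4, the leading peak did not separate the sites. Peak_37108 had 211 and 192 CPM in femur (replicates 1 and 2, the order kept from here on) and 160.4 and 205 CPM in mandible. The sites overlapped, with mandible replicate 1 lowest and femur replicate 1 highest. Its log2 fold change of mandible over femur was -0.14 (standard error 0.102, unadjusted p = 0.178 and adjusted p = 1.0 from edgeR).

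The smaller Klf4 peaks with the lowest p-values were Peak_37109 and Peak_37106. Peak_37109 (chr4:55533726-55533924), the 199 bp peak next to the leading peak, had 92, 77, 68 and 95 reads in femur replicates 1 and 2 and mandible replicates 1 and 2. This was 2.02 and 0.945 CPM in femur and 2.25 and 3.66 CPM in mandible, so the sites did not overlap. The log2 fold change was 1.02 (standard error 0.416, unadjusted p = 0.0253 and adjusted p = 1.0 from edgeR). It was 0.59 without femur replicate 2, 1.55 without femur replicate 1 and 0.37 without mandible replicate 2. Peak_37106 (chr4:55524633-55525319) had 6.39 and 2.16 CPM in femur and 5.81 and 8.0 CPM in mandible, with femur replicate 2 far below the other libraries and femur replicate 1 between the mandible libraries. Mandible over femur gave a log2 fold change of 0.71 (standard error 0.371, unadjusted p = 0.0711 and adjusted p = 1.0 from edgeR), which was 0.10 without femur replicate 2, 1.68 without femur replicate 1 and 0.46 without mandible replicate 2. The other Klf4 peaks had log2 fold changes from 0.020 to 0.26 with unadjusted p-values from 0.405 to 0.921 in the edgeR test. Among them, Peak_37105 (chr4:55514730-55515207), named after its values were seen, was the densest of the smaller peaks at 37.7 CPM per kb, with 16.0 and 19.8 CPM in femur and 17.4 and 18.9 CPM in mandible. It was the single member that was higher in mandible in batch A and lower in batch B.

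At Klf2, the leading peak was the steadiest of the 3 between femur libraries. Peak_51230 had 480.3 and 477 CPM in femur and 396 and 526 CPM in mandible. In loess CPM the mandible libraries lay on either side of the femur libraries. The loess log2 fold change was -0.055 (standard error 0.0894, unadjusted p = 0.547 and adjusted p = 1.0 from edgeR). With TMM normalization, described below, femur had 470 and 379 CPM and mandible 474 and 566 CPM. The sites thus did not overlap, but femur replicate 1 and mandible replicate 1 were nearly equal. The share of all peaks that separate the sites with TMM was not computed. The median TMM log2 fold change of peaks with a mean of 100 CPM or more was itself 0.23. The TMM log2 fold change was 0.29 (unadjusted p = 0.0401 and adjusted p = 0.936 from edgeR). Scaling by library size alone gave 0.20 (unadjusted p = 0.0490 and adjusted p = 0.840 from edgeR). Peak_51227 (chr8:73049453-73050161) followed the loess order of the leading peak. It had 20.2 and 19.2 CPM in femur and 15.3 and 20.8 CPM in mandible, with a log2 fold change of -0.13 (standard error 0.203).

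Peak_51229 (chr8:73058073-73058205) had the largest fold change of the 17 and the lowest mean CPM of all 57090 peaks, 1.22. Its reads numbered 45 and 5 for femur but 47 and 70 for mandible. For the count of 5 the exact 95% Poisson interval was 1.62 to 11.7 reads, which covers counting error only. In CPM, femur had 0.990 and 0.0748 and mandible had 1.48 and 2.32, so the sites did not overlap. The log2 fold change was 1.92 (standard error 0.698, unadjusted p = 0.0133 and adjusted p = 1.0 from edgeR), and it was 1.26 without femur replicate 2, 4.47 without femur replicate 1 and 1.11 without mandible replicate 2. This peak is separated by 203 bp from a 580 bp neighbour, whose values of 14.5, 13.9, 12.5 and 17.0 CPM, in the same order, showed no such fall in femur replicate 2.

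At Klf6, the leading peak split by library and not by site. Peak_13591 had 435 and 311 CPM in femur and 299 and 441 CPM in mandible. Femur replicate 1 and mandible replicate 2 were high, and the other two were low. The log2 fold change was -0.010 (standard error 0.139, unadjusted p = 0.941 and adjusted p = 1.0 from edgeR). Peak_13592 (chr13:5923436-5924199), which starts 109 bp past the leading peak, had 10.5 and 7.37 CPM in femur and 10.3 and 17.5 CPM in mandible. The log2 fold change of 0.64 (standard error 0.267, unadjusted p = 0.0287 and adjusted p = 1.0 from edgeR) came with overlapping sites, since femur replicate 1 lay just above mandible replicate 1. It was 0.39 without femur replicate 2, 0.22 without mandible replicate 2 and 0.97 without mandible replicate 1. Peak_13590 (chr13:5895175-5895957) had 31.8 and 16.6 CPM in femur and 27.9 and 30.2 CPM in mandible, where only femur replicate 2 stood apart. Mandible over femur gave a log2 fold change of 0.27 (standard error 0.231, unadjusted p = 0.262 and adjusted p = 1.0 from edgeR), which was -0.14 without femur replicate 2 and 0.82 without femur replicate 1. The other Klf6 peaks had log2 fold changes from 0.068 to 0.30.

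**Figure D3:**
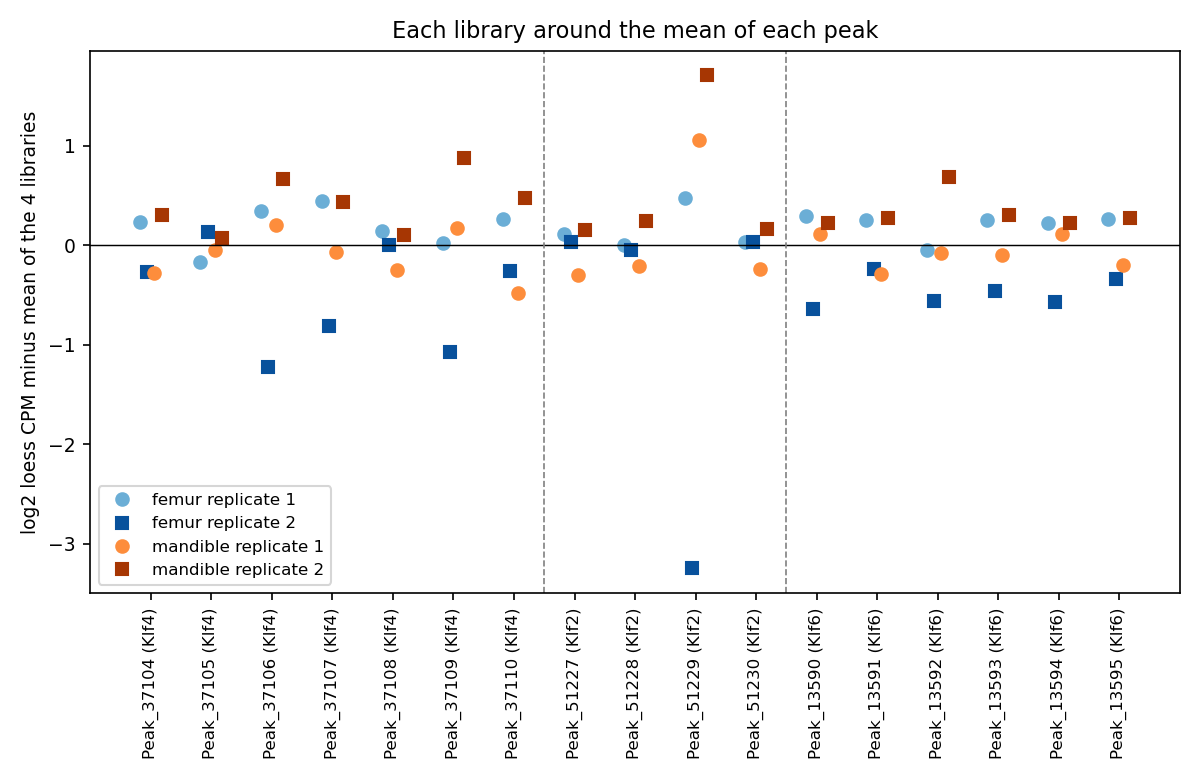
For each of the 17 peaks, the log2 loess CPM of each library minus the mean of the 4 libraries. Femur replicate 2 (dark blue squares) is the lowest library in 9 peaks and mandible replicate 2 (dark orange squares) the highest in 12, against 32.6% and 26.6% of all peaks.

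The difference between sites took opposite directions in the batches. In batch A, 14 of the 17 peaks were lower in mandible than in femur and 3 were higher, with a median log2 difference of -0.28, beside -0.0034 over all peaks. In batch B, 16 were higher in mandible and 1 was lower, with a median of 0.73, beside -0.010 over all peaks. Of all peaks, 49.4% were higher in mandible in batch A and 49.0% in batch B. Peak_37109 and Peak_51229, 2 of the 17, kept 1 sign across batches, as did 42.3% of all peaks. In these same 2 peaks both mandible libraries exceeded both femur libraries in loess CPM, which held for 13.3% of all peaks. Both mandible libraries lay below both femur libraries in 0 of the 17 and in 13.8% of all peaks. Each batch holds 1 library per site, so the difference between batches was not tested.

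**Figure D4:**
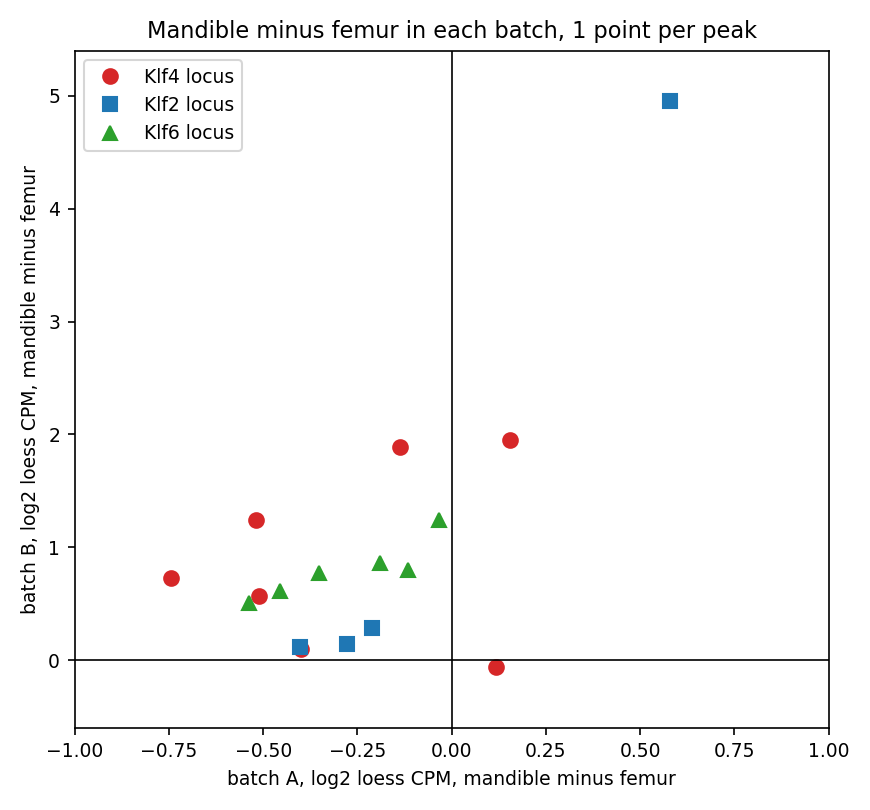
Log2 difference of mandible minus femur in batch A (horizontal) and batch B (vertical), 1 point per peak and 1 library per site and batch. All points but 3 lie left of 0 and all but 1 lie above 0, with Peak_51229 of Klf2 at 4.96 in batch B.

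Femur replicate 2 lay below the mean of the other 3 libraries in 13 of the 17 peaks, with a median log2 deviation of -0.45, whereas the median over all peaks was 0.011 and 48.6% of them lay below. The 3 leading peaks had deviations from -0.31 to 0.040 in this library. With the replicate block (batch as a term in the edgeR model), 0 of the 17 peaks passed an adjusted p of 0.05, against 0.0998% of all peaks. Their lowest adjusted p was 0.415, for Peak_51229. With all 4 libraries and no block, 13 of the 17 log2 fold changes were positive and 4 negative, and 49.1% of all peaks were positive. Without femur replicate 2, 6 of the 17 were positive and 11 negative, and 51.8% of all peaks were positive. With femur replicate 1 left out, 8 peaks passed, all of them higher in mandible, and 3.75% of all peaks passed in that direction. That count sets the mandible libraries against femur replicate 2 alone, which is assumed to vary like the mandible libraries.

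Summed over each locus, accessibility did not separate the sites. For femur (SD, n = 2), the Klf4 sum was 251 ± 26.4 CPM, against 239 ± 43.4 CPM for mandible (SD, n = 2). The Klf2 sum was 513 ± 3.93 CPM, against 496 ± 99.2 CPM, with the same n. The Klf6 sum was 480.4 ± 125 CPM, against 495 ± 123 CPM, with the same n. The log2 differences were -0.068, -0.050 and 0.042, each smaller than the spread between replicates, and the two-sided exact permutation test over libraries gave p = 1.0, 1.0 and 0.667, where 2 against 2 libraries cannot give less than 0.333. In batch A the log2 differences were -0.37, -0.28 and -0.48, and in batch B 0.22, 0.15 and 0.57, in the same order. With TMM normalization, described below, they were -0.20, -0.0091 and -0.27 in batch A and 0.47, 0.56 and 0.91 in batch B, so that Klf2 hardly differed between sites in batch A.

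The direction at the leading peaks depended on the scaling. With loess offsets, which centre peaks of each level, all 3 leading peaks had log2 fold changes below 0. With TMM normalization, a single factor per library, they were 0.11 for Klf4, 0.29 for Klf2 and 0.29 for Klf6. TMM also moved the median of peaks of this kind. The median log2 fold change of the 1368 peaks with a mean of 100 CPM or more was 0.23 with TMM and -0.0039 with loess. That of the 75 peaks longer than 4000 bp was 0.30 with TMM and 0.012 with loess. The medians of all peaks were -0.014 and -0.0044. The Klf2 and Klf6 leading peaks lay close to the median of the peaks longer than 4000 bp with either scaling. The Klf4 leading peak lay below that median with either scaling. Its standard error was 0.102 with loess and 0.139 with TMM, and its loess value without mandible replicate 1 was 0.017. The spread of the other wide peaks around their median was not computed. Over the 17 peaks the median log2 fold change was 0.068 with loess and 0.25 with TMM. By batch with TMM, 13 of the 17 were lower in mandible in batch A (median -0.20) and 17 were higher in batch B (median 0.75). Over all peaks the TMM medians were -0.012 in batch A and -0.015 in batch B. Peaks of 100 CPM or more, among the 17 only the leading peaks, had medians of 0.19 and 0.28.

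**Figure D5:**
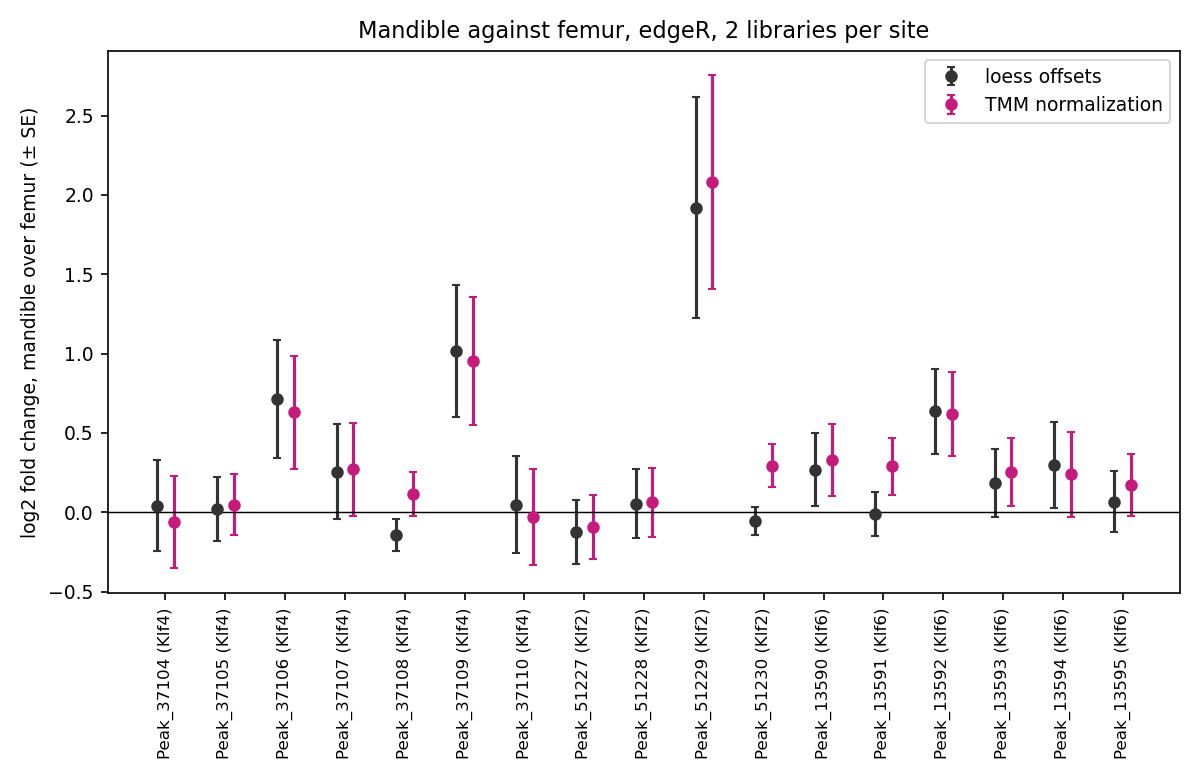
Log2 fold change of mandible over femur for the 17 peaks with standard errors, by edgeR with loess offsets (black) and with TMM normalization (pink), 2 libraries per site. From loess to TMM, the leading peaks Peak_37108, Peak_51230 and Peak_13591 turn from below to above 0. The outermost Klf4 peaks turn the other way, from 0.041 to -0.064 and from 0.048 to -0.031. Peak_51227 stays below 0. All others, among them Peak_37109, Peak_51229 and Peak_13592, stay above 0.

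The share of a locus held by its leading peak was taken from the reads as counted and again from loess CPM, since loess scales peaks of different levels differently. As counted, the leading peak held 77.8% (95% Wilson interval 77.1 to 78.6) and 80.0% (79.4 to 80.6) of the Klf4 reads in femur replicates 1 and 2, and 79.3% (78.4 to 80.3) and 76.8% (75.8 to 77.7) in mandible replicates 1 and 2. At Klf2 it held 92.9% (92.6 to 93.2) and 92.1% (91.8 to 92.4) in femur, and 94.2% (93.8 to 94.6) and 93.2% (92.8 to 93.6) in mandible. At Klf6 the share lay between 76.1% and 76.6% in all 4 libraries. In loess CPM the Klf4 share was 78.4% and 82.5% in femur and 76.8% and 75.7% in mandible, the Klf2 share lay between 92.9% and 93.5%, and the Klf6 share was 76.5% and 79.2% in femur and 73.4% and 75.8% in mandible. The scaling thus set whether sites overlapped, since Klf2 separated them as counted only, and Klf4 and Klf6 in loess CPM only. Intervals cover counting error only, and both reads of a pair were counted, so they are too narrow.

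The ratio of the Klf2 to the Klf4 leading peak in reads was 2.28 and 2.33 in femur replicates 1 and 2 and 2.59 and 2.61 in mandible replicates 1 and 2. The femur mean was 2.30 ± 0.0343 (SD, n = 2) and the mandible mean 2.60 ± 0.0117 (SD, n = 2), so as counted the sites did not overlap. The exact permutation test gave p = 0.333, the smallest it can give, and 1.0 after adjustment over the 3 ratios computed, which were chosen after the values were seen. In loess CPM the ratio was 2.27 and 2.49 in femur and 2.47 and 2.57 in mandible, where the sites overlapped and the exact permutation test gave p = 0.667. As counted, the ratio of Klf6 to Klf4 was 2.06 and 1.54 in femur and 1.94 and 2.18 in mandible, and that of Klf2 to Klf6 was 1.11 and 1.51 in femur and 1.34 and 1.20 in mandible, where the sites overlapped in both.

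With 4 libraries, likeness of pattern is only a description. The peak nearest in pattern to the Klf4 leading peak, by Euclidean distance of log2 CPM centred over the libraries, was Peak_47187 (chr7:30397630-30397861) at 0.0149. For Klf2 it was Peak_50566 (chr8:34119159-34119371) at 0.0105, and for Klf6 it was Peak_40162 (chr5:32039680-32039935) at 0.00929. Within a distance of 0.1, there were 285 peaks for Klf4, 403 for Klf2 and 76 for Klf6, or 0.499%, 0.706% and 0.133% of the peaks outside the loci.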

How the data were processed

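Per the study's methods and the file headers, reads had been trimmed (Trimmomatic) and mapped to GRCm39 (Bowtie2), and the authors then discarded poorly mapped and duplicate reads. Genrich called peaks jointly from the libraries of a site, and bedtools joined the peaks of both sites. What was deposited are unnormalized counts of reads per merged peak from featureCounts 2.0.6 (fragments up to 1000 bp, each read of a pair counted alone), so peak calls cannot be compared between libraries.

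All 57090 peaks entered 1 quasi-likelihood model (glmQLFit and glmQLFTest of edgeR 4.0.16, R 4.3.3), with loess offsets from limma 3.58.1 (pseudocount 0.5, scaled to library size) and no term but site, and p-values were adjusted over all peaks by the Benjamini-Hochberg method. The default filter removed 0 peaks. A standard error is the size of the log2 fold change over the root of its F statistic. Before use, the model code was tested on simulated data with known changes. Each batch is 1 pool of mice, so p-values measure the spread between these pooled libraries. For each peak the test also borrows from the spread of all other peaks, with a weight of 15.7 prior degrees of freedom. Same-numbered libraries share a pool according to the labels, which pairs them. The correlation of their deviations across peaks was -0.167. Alternatives were TMM, library size alone, DESeq2 1.42.0, 2 filters, a replicate block, a threshold of 0.1 and leaving out each library. A crossed block, tests on 3 libraries, loess ratios and TMM batch values were chosen after seeing the data.

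Peaks named in each locus were the one with the highest mean CPM, the longest, the pair with the lowest p and any past the threshold, and Peak_37105 was named after its values were seen. Members and lists were chosen with earlier results of these data known. The reference used here is GRCm38, so its coordinates were not set against the peaks, and lists of other KLF and SP genes, of their regulators and of cell type markers were not analysed here.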

Additional observations from a re-analysis of the deposited data

Results flagged for a closer look

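The summed accessibility of the 3 loci moved in opposite directions in the batches. The log2 difference of mandible minus femur was larger in batch B than in batch A by 0.59 at Klf4, 0.43 at Klf2 and 1.05 at Klf6. These are loess values. With TMM the Klf2 difference in batch A was -0.0091. At every locus femur lay above mandible in batch A and mandible above femur in batch B. With 1 library per site in each batch, this difference was not tested.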

How the results depend on the processing

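With all 4 libraries, 0 of the 17 peaks passed an adjusted p of 0.05 in either direction with loess, TMM, library size alone or DESeq2 (5 peaks without an adjusted p). The same held with a filter of 10 counts, a threshold of 0.1 or the replicate block. The run without a filter repeated the loess fit, since the default filter removed 0 peaks. Peak_51229 was removed by the filter of 10 counts in every library. A block with crossed pairs, chosen after seeing the data because the correlation of same-batch deviations was negative, called 1 higher, Peak_51229 (184 higher and 23 lower over all peaks, against 47 and 10 with the pairing by batch). With a library left out, from 0 to 8 were called higher, the 8 without femur replicate 1. At an unadjusted p under 0.05, 3 were higher and 0 lower with loess, where 1.61% of all peaks were higher and 1.10% lower. TMM, library size alone and the replicate block each gave 4 higher and 0 lower. Of all peaks, 2.49%, 1.17% and 2.22% were higher and 2.06%, 4.53% and 0.746% lower, in the same order. With TMM and library size alone, the 4 included the Klf2 leading peak, Peak_51230. DESeq2 gave 1 higher and 0 lower, where 1.61% of all peaks were higher and 1.20% lower. These unadjusted counts come from all 4 libraries, and the direction depended on them. The log2 fold change was positive in 6 of the 17 and negative in 11 without femur replicate 2, and again without mandible replicate 2. It was positive in 17 without mandible replicate 1 and in 13 without femur replicate 1. Of all peaks, 51.8%, 49.2%, 48.3% and 49.3% were positive, in the same order. The summed Klf2 difference moved from -0.050 to 0.28 with TMM and 0.18 with library size alone, and lay between -0.26 and 0.13 with a library left out. The sums of Klf4 and Klf6 moved by less than the spread between replicates in every alternative, and their sign was not fixed either.

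Of 186 combinations of a peak and an alternative, 38 turned the sign of the log2 fold change, in 13 of the 17 peaks. The 186 include the run without a filter, which could not turn a sign. With TMM, library size alone and DESeq2, it became 0.11, 0.018 and 0.12 for Peak_37108, 0.29, 0.20 and 0.30 for Peak_51230 and 0.29, 0.20 and 0.30 for Peak_13591. Library size alone, where the median of all peaks was -0.12, gave -0.056 for Peak_37105. With a library left out, the range was -0.12 to 0.19 for Peak_37105, -0.33 to 0.017 for Peak_37108, -0.36 to 0.076 for Peak_51227, -0.27 to 0.13 for Peak_51230, -0.14 to 0.82 for Peak_13590 and -0.31 to 0.27 for Peak_13591. The causes were not tested.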
